A study of Bos taurus with 16 samples.

Results

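Rumen papillae are the projections of the rumen wall, a stratified squamous epithelium over a connective tissue core. The 4 protease inhibitor genes SERPINB1, SERPINB2, A2ML1 and A2M were followed in these papillae in every exon region that carries their symbol, 62 regions in all. They are 4 of 12024 genes that have an exon region of their own, and all 4 were among the 9466 genes with enough coverage to be tested. The genes were grouped by name and function after the intake difference of SERPINB1 in these same libraries was known, so the intake values of all 4 are given as a description with no test. Gain, and the way the intake difference varied with gain, were tested.

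The animals were 16 crossbred steers aged 344 ± 48 days, all fed freely on the same ration of corn, distillers grains and alfalfa. They were picked by the quadrant of weight gain and feed intake in which they fell, 4 animals of high gain and high intake (HGHI), 4 of high gain and low intake (HGLI), 4 of low gain and high intake (LGHI) and 4 of low gain and low intake (LGLI). One library of polyadenylated RNA was made per animal, and no treatment or allele separates the groups. Gain and intake were measured in the animals and not assigned to them.

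Serpins are suicide inhibitors: a protease cuts their exposed loop and is trapped in a covalent complex. The clade B serpins SERPINB1 and SERPINB2 lack the usual secretion signal and act largely inside cells. SERPINB1, leukocyte elastase inhibitor, blocks the neutrophil proteases elastase, cathepsin G and proteinase 3 in human and mouse. SERPINB2, plasminogen activator inhibitor type 2 (PAI2), blocks urokinase and tissue plasminogen activator and is made by keratinocytes and macrophages. A2M, alpha-2-macroglobulin, is a secreted cage that closes around proteases of all classes once its bait region is cut. A2ML1 is its relative made by the upper layers of human stratified epithelia.

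A level below is the scaled read coverage per base of the gene's best covered exon region, that is, the mean number of reads over each base times the library's own scaling factor. Libraries held an estimated 11.9 to 21.2 M reads. Of the 16, the 5 libraries HGHI 4, HGLI 2, HGLI 3, HGLI 4 and LGLI 3 had thin coverage of first exons, with a first-exon index (the median log2 ratio of first to other exons over 1011 genes) of -2.63 to -1.84, against -1.21 to -0.41 in the other 11. Between 284 and 1222 tested genes had a value of 0 in each of them, and between 89 and 178 in each of the remaining 11. These 5 are 4 high-gain and 1 low-gain animals, and 1 high-intake and 4 low-intake animals, so the main differences are given with and without them. Without them HGHI keeps 3 animals, HGLI 1, LGHI 4 and LGLI 3. The lone HGLI animal, HGLI 1, then carries as much weight as all LGLI animals for intake and as all HGHI animals for gain and is assumed to vary like the other groups. Intake within low gain (4 against 3 animals) and gain within high intake (3 against 4) do not use HGLI 1. Over the 11 libraries the median log2 difference of all tested genes was -0.13 for intake, with 34.2% of them above 0, and -0.04 for gain. The mean index was -1.61 ± 0.76 in high-gain animals and -0.80 ± 0.72 in low-gain animals (SD, n = 8 each; two-sided exact permutation p = 0.0441, adjusted over 6 library tests 0.0883).

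The tissue held epithelium and the tissue below it. The basal keratins KRT5 and KRT14 ranged over 53.8 to 349 and 9.83 to 841 coverage units, and the matrix gene COL3A1 over 41.9 to 392. KRT4, a keratin of moist squamous epithelia, was at 0 to 2.73, and the macrophage gene CD163 at 0 to 2.92. Which cells made each inhibitor was not measured, so the epithelial source of the 4 genes was not checked. In whole tissue, fewer cells of a type and less RNA per cell cannot be told apart.

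The 4 genes differed widely in level. A2ML1 averaged 361 ± 113 coverage units per base over the 16 libraries and ranked 35 among all 9466 tested genes. Among 44 tested inhibitor and related genes it was second to SERPINB4, a squamous cell serpin, at 483 units and stood next to PI3 (elafin, an elastase inhibitor) at 305 units. A2M averaged 25.3 ± 17.9 units, SERPINB2 18.3 ± 6.09 and SERPINB1 17.8 ± 8.76, which placed them 13th, 14th and 15th of the 44. These last levels lie within each other's spread over libraries. Coverage per base takes account of region length, but each level is that of 1 region and not of the whole transcript.

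**Figure D1:**
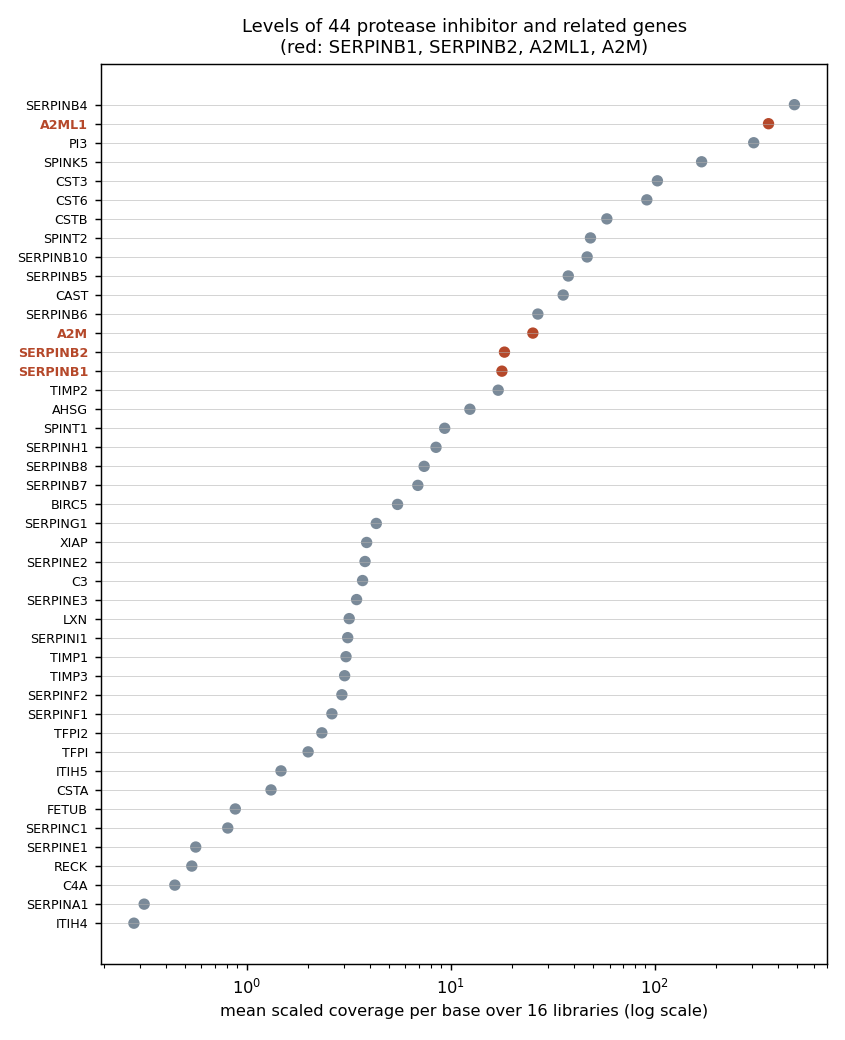
Mean scaled coverage per base over the 16 libraries (horizontal log axis) of 44 tested inhibitor and related genes, 1 point per gene, with SERPINB1, SERPINB2, A2ML1 and A2M in red. A2ML1 at 361 units lies second from the top, and the other 3 lie together between 17.8 and 25.3 units.

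SERPINB1 lies at chr23:50673568-50682591 (UMD3.1) with 5 exon regions. Its best covered region, chr23:50680976-50682591, is 1616 bases long and is annotated as exon 1 and intergenic sequence. Its level was 32.9, 15.6, 23.8 and 22.5 in HGHI animals and 6.35, 9.50, 13.0 and 8.66 in HGLI animals. In LGHI animals it was 20.3, 28.3, 30.2 and 19.7, and in LGLI animals 6.67, 24.5, 7.32 and 15.8. All 8 high-intake libraries lay above the low-intake median of 9.08. At high gain the intake groups did not overlap, as for 0.359% of all tested genes in that direction, a share given as background since this contrast is the one that chose the gene. At low gain they overlapped, because LGLI 2 stood with the high-intake animals.

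SERPINB1 averaged 24.1 ± 5.88 units at high intake and 11.5 ± 6.20 at low intake (SD, n = 8 each). The log2 difference was 1.18 with a standard error (SE) of 0.27. Within high gain it was 1.32 (SE 0.39) and within low gain 1.03 (SE 0.39). Without the 5 thin libraries it was 1.33 in the fit, where HGLI 1 at 6.35 units stood alone for its group, and 0.81 within low gain. The 7 high-intake animals left averaged 24.4 ± 6.31 units and the 4 low-intake animals 13.3 ± 8.63, a ratio of 1.83. Reads were not limiting, since the region held an estimated 254 to 1438 reads per library.

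The other SERPINB1 exon regions showed the same sign of intake difference. Over the 5 regions the intake log2 difference was 0.97 to 1.84, and over the 11 libraries 0.81 to 1.38. The largest came from exon 5, which averaged 6.15 units over all libraries and had an SE of 0.64. These regions share their animals and their reads' source, so they are not 5 independent readings. Coverage within the gene was uneven. In the 5 thin libraries the best covered region had 0.60 of its mean in the other 11, but the second region annotated as exon 1, chr23:50678655-50678928, had 0.10 and was at 0 in HGHI 4. The file gives the exon number 1 to both regions, and which is the true first exon was not checked.

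SERPINB1 gave no called difference for gain. Its mean was 16.5 ± 9.15 units in high-gain animals and 19.1 ± 8.79 in low-gain animals (SD, n = 8 each), a log2 difference of -0.22 (SE 0.27, limma adjusted p = 0.850, range 0.381 to 1.00 over 26 alternatives). All 5 exon regions had a negative gain estimate, -1.65 to -0.22 over 16 libraries and -1.06 to -0.58 over 11. The smallest adjusted p among them over 16 libraries was 0.589. In the 11-library fit HGLI 1 stood alone for its group. The 11-library means of the best region were 19.7 units at high gain and 20.8 at low gain. Within high intake, which does not use HGLI 1, its gain difference was -0.07, and 1 of 5 regions was above 0. The intake difference at high gain exceeded that at low gain by 0.29 on the log2 scale (SE 0.55, adjusted p = 1.00). It was 1.03 over the 11 libraries (SE 0.72, adjusted p = 0.664), again with HGLI 1 alone in its group. No dependence on gain was detectable at this spread.

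**Figure D2:**
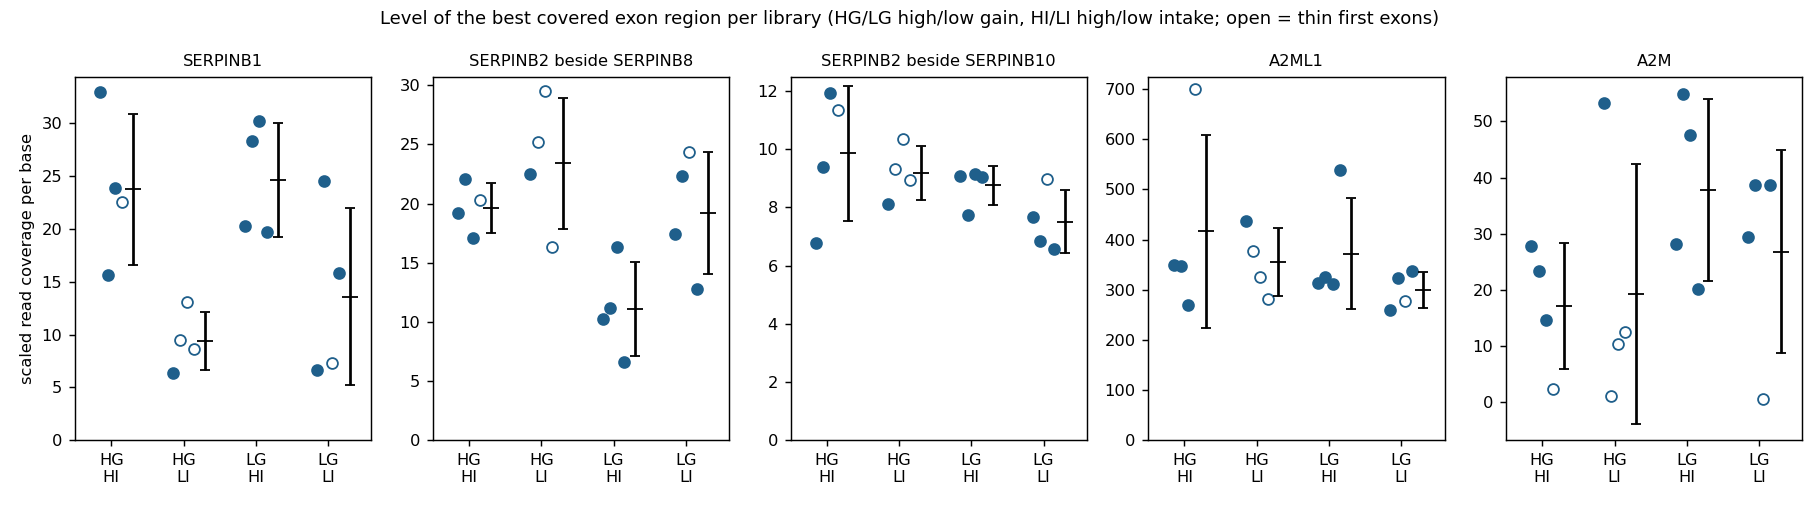
Scaled read coverage per base (vertical axis) of the best covered exon region in each of the 16 libraries, by group (HG and LG, high and low gain; HI and LI, high and low intake), with a bar at the group mean and whiskers of 1 SD (n = 4). Open circles are the 5 libraries with thin first exons. SERPINB1 is above 15 units in all 8 high-intake libraries, and the open circles of A2M sit at 0.56 to 12.5 units.

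The symbol SERPINB2 is given to 2 places on chromosome 24 of UMD3.1. One lies beside SERPINB8, at chr24:12747275-12765331 with 6 exon regions, and the other beside SERPINB10, at chr24:62591366-62610002 with 4. In the RefSeq annotation of the later assembly ARS-UCD2.0 the gene named SERPINB2 stands next to SERPINB10, and the gene after SERPINB8 is LOC281376, which has the same older name, PAI2, as SERPINB2. The gene fit used the better covered place, beside SERPINB8, and the other was fitted among all 71021 exon regions. How the aligner divided reads between similar copies is not given in the sources used here, so the split between the places is uncertain.

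Beside SERPINB8 the best covered region holds exons 7 and 8 at chr24:12747275-12749902. Its level was 19.2, 22.1, 17.1 and 20.3 in HGHI animals, against 10.2, 11.2, 16.3 and 6.65 in LGHI animals, with no overlap. That direction without overlap occurred in 0.401% of tested genes. In HGLI animals it was 22.5, 25.2, 29.5 and 16.3, against 17.4, 22.3, 24.3 and 12.8 in LGLI animals, where the groups overlapped. LGHI was the lowest of the 4 groups in mean, at 11.1 ± 3.98 units, against 19.6 ± 2.11 in HGHI, 23.4 ± 5.53 in HGLI and 19.2 ± 5.19 in LGLI.

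The gain log2 difference of SERPINB2 beside SERPINB8 was 0.59 (SE 0.20), from 21.5 ± 4.36 units at high gain and 15.1 ± 6.09 at low gain, and each of the 8 high-gain values exceeded the median at low gain. Its unadjusted limma p was 0.0107, where 5.32% of tested genes had an unadjusted p under 0.05. After adjustment over all genes p was 0.847 (0.0839 to 1.00 over 26 alternatives), and 0.0% of genes were called for gain. Over the 11 libraries the difference was 0.63. At high intake alone it was 0.88 (SE 0.28, adjusted p = 0.937) and at low intake 0.29 (SE 0.28, adjusted p = 1.00). The interaction was 0.59 (SE 0.40, adjusted p = 1.00), so a gain difference that varied with intake was not detectable.

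All 6 exon regions beside SERPINB8 had a positive gain estimate, 0.13 to 0.59, and 5 of 6 did without the thin libraries. The exception, exon 1, averaged 0.66 units in a region of 72 bases. For intake, given as a description, 8 of 8 high-intake libraries lay below the low-intake median, with 15.4 ± 5.44 units at high intake and 21.3 ± 5.45 at low intake. The log2 difference was -0.52 (SE 0.20) over 16 libraries and -0.45 over 11.

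Beside SERPINB10 the level was lower and more even. The region of exons 6 to 8, chr24:62604776-62610002, had 6.77, 9.37, 11.9 and 11.4 units in HGHI animals and 9.08, 7.75, 9.14 and 9.04 in LGHI animals. It had 8.10, 9.31, 10.3 and 8.94 in HGLI animals and 7.66, 6.85, 8.98 and 6.56 in LGLI animals. The groups overlapped in each pairing of high with low gain at one intake. Its gain log2 difference was 0.21 (SE 0.16, adjusted p over exon regions 0.683), and its intake difference was 0.15. They were 0.13 and 0.24 over the 11 libraries. The intake estimates at the 2 places had opposite signs. Whether the places differ was not tested. The spread over all 16 libraries was 17.4% of the mean here and 33.2% beside SERPINB8.

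A2ML1 lies at chr5:101490188-101545814 with 15 exon regions, of which 1 also holds MIR2284R and was left out of its tests. The best covered region, chr5:101496460-101497842, holds exons 34 and 35. Its level was 349, 346, 270.2 and 699.5 in HGHI animals and 438, 378, 325 and 281 in HGLI animals. In LGHI animals it was 313, 325, 312 and 538, and in LGLI animals 260.4, 323, 278 and 338. HGHI 4 and LGHI 4 stood above the rest and the groups overlapped. Every library had at least an estimated 8472 reads in this region.

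A2ML1 gave no called difference. Its mean was 386 ± 137 units in high-gain animals and 336 ± 85.5 in low-gain animals (SD, n = 8 each), a log2 difference of 0.17 (SE 0.20, limma adjusted p = 0.848). Without HGHI 4 that difference was 0.03. For intake it averaged 394 ± 147 units at high intake and 328 ± 58.4 at low intake, a log2 difference of 0.21 (SE 0.20). The fit over the 11 libraries gave -0.10, with HGLI 1 at 438 units alone in its group. The means of those libraries were 350.4 units at high intake and 339.5 at low intake, and within low gain the difference was 0.25. The number of exon regions above 0 for intake was 13 of 13 over 16 libraries, 1 of 13 over 11 and 13 of 13 within low gain over 11. The interaction of the best region was -0.13 (SE 0.40, adjusted p = 1.00), and -0.70 over the 11 libraries (adjusted p = 0.581). All 13 regions had a negative interaction estimate, -0.84 to -0.13, with a smallest adjusted p of 1.00.

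Along A2ML1 the libraries differed in shape. The ratio of exon 1 to exons 34 and 35 ranged over 0.13 to 0.33 in the 5 thin libraries and over 0.13 to 0.59 in the other 11, which overlap. Exon 6 separated them. Its ratio to its neighbour exon 7 was 0.06 to 0.38 in the 5 thin libraries and 0.45 to 0.62 in the other 11. Exon 6 had 10.98, 10.7, 27.1, 17.4 and 2.83 units in HGHI 4, HGLI 2, HGLI 3, HGLI 4 and LGLI 3, and HGHI 4, which had the highest A2ML1 level at exons 34 and 35, was among the lowest at exon 6. Exon 5 averaged 0.21 units between neighbours at 40.6 (exon 6) and 31.5 (exons 3 and 4) units, below the level needed for a test.

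A2M lies at chr5:101298026-101348542 with 32 exon regions that cover exon numbers 1 to 37, of which 30 were tested. Exon 29, chr5:101334279-101334478, was the best covered. It had 27.9, 23.5, 14.7 and 2.45 units in HGHI animals and 53.3, 1.21, 10.3 and 12.5 in HGLI animals. In LGHI animals it had 28.2, 54.9, 47.6 and 20.3 units, and in LGLI animals 29.5, 38.6, 0.56 and 38.6. The 5 thin libraries spanned 0.56 to 12.5 units and the other 11 spanned 14.7 to 54.9, without overlap. The lowest, LGLI 3, rests on an estimated 2.8 reads in this 200-base exon.

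The A2M estimates at exon 29 depended on whether the thin libraries were included. The gain log2 difference at exon 29 was -0.95 (SE 0.93, limma adjusted p = 0.847), from 18.2 ± 16.9 units in high-gain animals and 32.3 ± 16.9 in low-gain animals (SD, n = 8 each). Over the 11 libraries it was -0.06, with HGLI 1 at 53.3 units, the highest high-gain value, alone in its group. The 11-library means were 29.8 units at high gain and 36.8 at low gain, and within high intake the difference was -0.72. With the first-exon index as a covariate it was 1.10 (adjusted p = 0.0831), the opposite sign. The intake difference, a description, was 0.89 (SE 0.93) over 16 libraries, -0.67 over 11, -0.01 within low gain over 11, and -0.35 with the covariate. The interaction was -1.07 (SE 1.86, adjusted p = 1.00), and -1.31 over the 11 libraries (adjusted p = 0.538). Both differences at exon 29 thus had opposite signs under different settings.

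The last A2M region gave another picture of the same gene. Exons 33 to 37, a stretch of 6145 bases at chr5:101342398-101348542, had 8.84, 8.08, 5.35 and 13.6 units in HGHI animals and 6.46, 11.7, 14.2 and 7.98 in LGHI animals. It had 18.0, 8.73, 6.65 and 6.95 in HGLI animals and 6.87, 10.5, 11.7 and 8.29 in LGLI animals. Its mean in the 5 thin libraries was 0.98 of that in the other 11, against 0.16 for exon 29 and 0.09 for exon 30. Its gain log2 difference was -0.08 (SE 0.26, adjusted p over exon regions 0.936) and its intake difference -0.02, both inside 1 SE. In the 11-library fit they were 0.34 and -0.56, with HGLI 1, at 18.0 units the highest of all, alone in its group. Without HGLI 1 in the contrast, gain was -0.40 within high intake and intake was 0.19 within low gain. Over 16 libraries these 2 were -0.18 and 0.07. Between library sets the gain estimate of this region thus changed sign, and the intake estimate and the 2 within-group estimates did not.

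Within A2M the ratio of exon 29 to exons 33 to 37 was 0.05 to 1.80 in the 5 thin libraries and 2.54 to 4.69 in the other 11. Of the 30 tested regions, 30 had a negative gain estimate over 16 libraries (-1.45 to -0.05) and 23 over 11, and the smallest adjusted p over 16 libraries was 0.459. For intake 22 of 30 were above 0 over 16 libraries, 3 of 30 over 11 and 12 of 30 within low gain over 11, where 36.1% of all tested genes were above 0. These regions share reads, animals and the uneven coverage, so their counts are a description. Across regions, the mean in thin libraries was 0.09 to 0.98 of that in the other 11 for the tested ones.

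**Figure D3:**
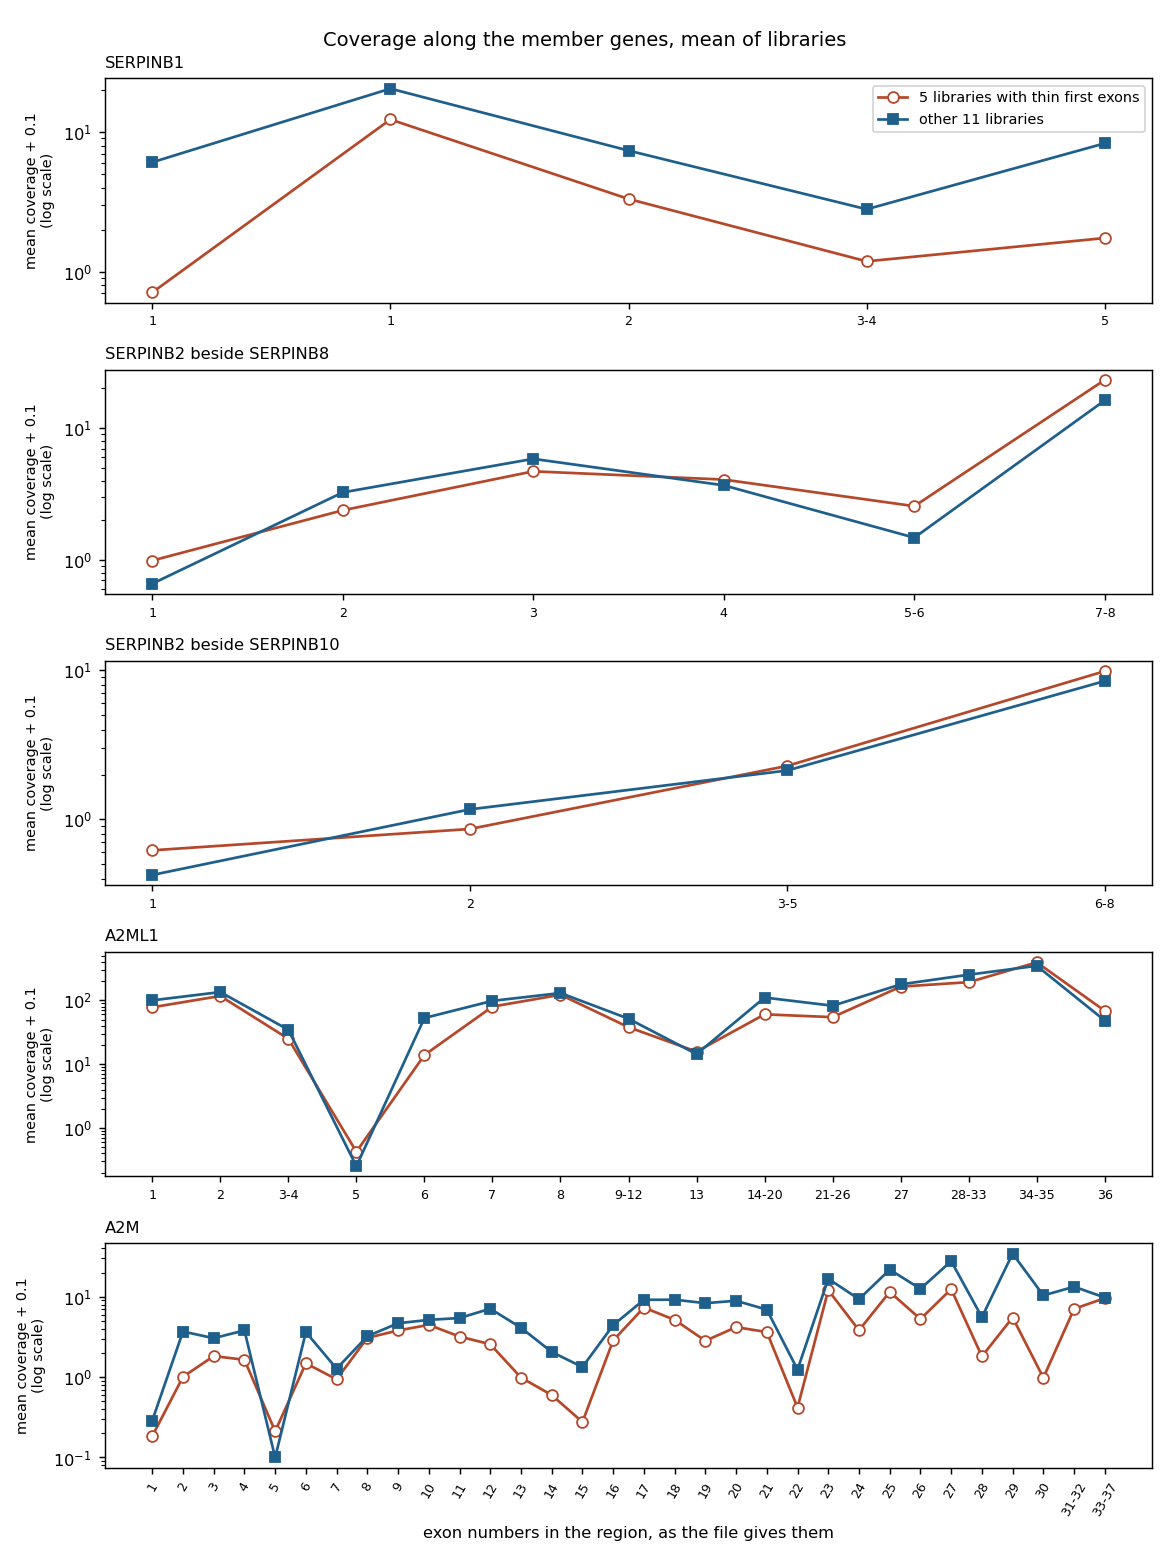
Mean scaled coverage per base plus 0.1 (vertical log axis) of each exon region in the order of its exon numbers, for the 5 libraries with thin first exons (open red circles) and the other 11 (blue squares). The 2 SERPINB1 regions numbered 1 are drawn in order of position. The lines part widely at A2M exons 29 and 30 and A2ML1 exon 6 and meet at A2M exons 33 to 37.

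**Figure D4:**
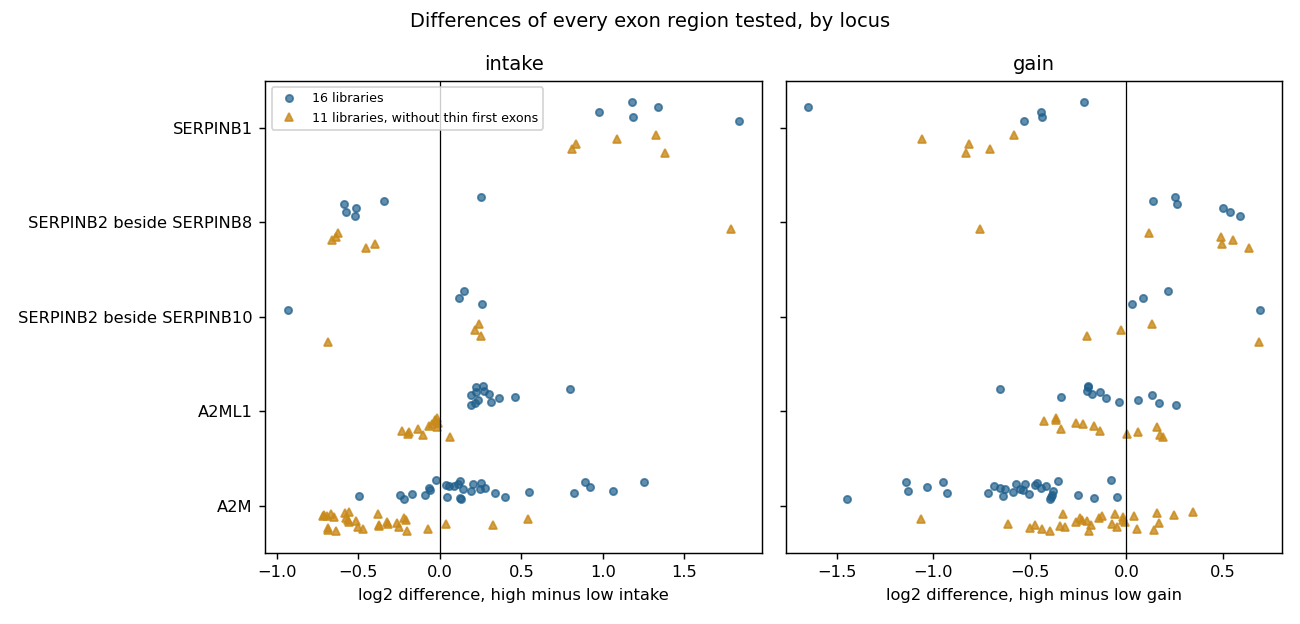
Log2 difference between high and low intake (left) and between high and low gain (right) for each tested exon region of the 5 places, over 16 libraries (circles) and over the 11 without thin first exons (triangles). SERPINB1 intake points stay between 0.81 and 1.84, and A2ML1 intake points lie above 0 over 16 libraries and mostly below it over 11.

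For gain and interaction the limma adjusted p of each of the 4 genes was over 0.05, as it was for every tested gene, so 0.0% of 9466 genes and 0.0% of 71021 exon regions were called over 16 libraries. Over the 11 libraries, where HGLI 1 stood alone for its group, exon regions were called for gain, nearly all lower. Others were called for gain at low intake, which then set HGLI 1 alone against the LGLI animals left. HGLI was 1 animal in these fits, so the calls are not counted here, and their cause was not tested. No exon region of the 4 genes was among them. Unadjusted p under 0.05 was reached by 504 genes for gain, 784 (8.28%) for intake and 50 for the interaction. The median log2 difference of all tested genes was -0.05 for gain and -0.01 for intake.

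Related inhibitors and their target proteases were counted beside these genes, each from the same fit and with no gene called for gain, intake or interaction. Of 6 tested other clade B serpins, 4 had an intake estimate above 0 and 2 below, with a median of 0.17. SERPINB10, the neighbour of one SERPINB2 place, had 35.1 ± 11.6 units at high intake and 58.1 ± 23.2 at low intake, a log2 difference of -0.72 (SE 0.25, limma adjusted p = 0.529). Of 16 tested other protease inhibitors, 8 were above 0 and 8 below. PI3, which like SERPINB1 inhibits neutrophil elastase, had 522 ± 658 units at high intake and 88.3 ± 113 at low intake (log2 difference 2.87, SE 0.96, adjusted p = 0.529).

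Of 10 tested other serpins, 6 had an intake estimate above 0, with a median of 0.25, which was -0.20 over the 11 libraries. Both tested relatives of A2M, the complement genes C3 and C4A, had adjusted p values of 0.587 and 0.649 for intake. All 6 tested cystatins, inhibitors of cysteine proteases, had an intake estimate above 0 with a median of 0.79, and 3 of 6 did over the 11 libraries, where the median was -0.01. Of 15 tested epithelial proteases, 13 were above 0 with a median above 1.5, which was 0.35 over the 11 libraries. The list holds KLK7 to KLK10, already described for intake in these same libraries, so this count is a description. KLK9, a kallikrein of squamous epithelium, had 2.32 ± 1.93 units at high intake and 0.16 ± 0.16 at low intake (adjusted p = 0.312), and a log2 difference of 2.97 over the 11 libraries.

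The proteases that SERPINB2 blocks had lower mean levels than SERPINB2, which averaged 18.3 units. PLAT, tissue plasminogen activator, had 2.60 ± 1.25 units at high intake and 4.10 ± 1.39 at low intake (log2 difference -0.72, SE 0.23, adjusted p = 0.529), and PLAU, urokinase, averaged 2.96 units. Of 6 tested genes of the plasminogen system, 2 had an intake estimate above 0 and 4 below, with a median of -0.35. The neutrophil proteases that SERPINB1 blocks had no exon region of their own, so they were not analysed here. Of 8 neutrophil markers reported here, MPO, MMP9, ITGAM and PGLYRP1 stayed under 1 unit in every library. The summed level of the 8 was 2486 to 5688 at high intake and 1898 to 4631 at low intake, nearly all of it S100A12, at 1898 to 5685 units. All 4 tested genes of the neutrophil list, S100A12, LTF, CXCR2 and MMP9, had an intake estimate above 0. Their median was 0.44 over 16 libraries and 0.47 over 11, and none was called by limma. LTF, CXCR2 and MMP9 averaged only 0.59, 0.36 and 0.19 units. Which cells made S100A12 was not measured, so its level is not a measure of neutrophils here. LTF, lactoferrin, had 0.88 ± 1.27 units at high intake and 0.31 ± 0.40 at low intake and reached 3.96, and CXCR2 and NCF1 reached 1.11 and 1.45. The part of neutrophils in the SERPINB1 values was not tested.

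Markers of other cell types were set beside the gain estimates of A2M, and none was called by limma. All 14 tested fibroblast and matrix markers, all 13 endothelial and all 11 smooth muscle and pericyte markers had a gain estimate below 0, with medians of -0.46, -0.61 and -1.08. Over the 11 libraries 11 of 14, 10 of 13 and 11 of 11 did. The summed fibroblast markers were 258 to 523 units at high gain and 262 to 1232 at low gain, and COL1A1 was listed at 0 in at least 1 library. Of 8 macrophage markers, 6 had a gain estimate below 0, with sums of 22.1 to 53.5 at high gain and 25.4 to 60.5 at low gain. The part of these cells in the A2M values was not tested. Liver transcripts were near 0: of 6 listed liver and plasma genes, APOA1, FGB, FGG, TF and HP stayed under 1 unit. The sixth, TTR, had 0.24 ± 0.37 units at high gain and 1.03 ± 0.66 at low gain, a log2 difference of -2.21 (SE 0.62, adjusted p = 0.835).

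Surface and basal epithelial genes were set beside the intake values of SERPINB1. Of 22 tested suprabasal and surface genes, 20 had an intake estimate above 0 with a median of 0.82, and over the 11 libraries 18 did with a median of 0.29. Their summed level was 2377 to 4155 units at high intake and 1020 to 3469 at low intake. The lowest and the highest low-intake sums came from thin libraries. In the other 11 libraries no sum lay below 2377 units. Of 10 tested basal markers, 6 were above 0. Macrophage markers were above 0 in 7 of 8 over 16 libraries and in 4 of 8 over 11, lymphocyte markers in 4 of 6 over both. Markers of the tissue below the epithelium were mixed for intake over 16 libraries. Estimates were below 0 for 10 of 14 fibroblast and matrix, 7 of 13 endothelial and 5 of 11 smooth muscle and pericyte markers. Over the 11 libraries these counts were 14, 9 and 10. Of all 9466 tested genes, 4769 were below 0 for intake over 16 libraries and 6232 over the 11. The part of the makeup of the tissue in the SERPINB1 difference was not tested.

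Genes whose level followed each inhibitor were taken from the 11 libraries as the 3 highest Spearman correlations among tested genes, a description over 11 points that share depth and groups. For SERPINB1 they were CD2, a T-cell surface protein at a mean of 0.43 units, with rho 0.90, S100A9, a calcium-binding subunit of calprotectin, with rho 0.89, and SIT1, a lymphocyte adaptor at 0.35 units, with rho 0.88. Over all 16 libraries rho was 0.80, 0.90 and 0.79. S100A9 had 239 ± 168 units at high intake and 80.5 ± 94.4 at low intake (log2 difference 2.16, SE 0.73, adjusted p = 0.529). The lymphocyte markers were not uniform for intake, with 4 of 6 tested above 0, CD2 among them, and 2 below. CD3G, at a mean of 18.3 units, was below 0. It had 12.4 ± 8.02 units at high intake and 24.2 ± 12.5 at low intake (log2 difference -1.09, SE 0.42, limma adjusted p = 0.529).

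A2M was followed by PCOLCE, a collagen-processing enhancer, with rho 0.97, RBM8A, an exon junction protein, with 0.94, and ITIH5, an inhibitor heavy chain, and TMED4, a trafficking protein, both with 0.93. Over all 16 libraries these were 0.62, 0.02, 0.34 and 0.76, so rho was far lower for RBM8A and ITIH5 with the thin libraries in. SERPINB2 beside SERPINB8 was followed by ALKBH8, a transfer RNA methyltransferase, with 0.91, SWAP70 with 0.85 and FUNDC1 with 0.84, and over 16 libraries 0.88, 0.83 and 0.78. Beside SERPINB10 it was followed by PLEKHA6 with 0.83, ZFYVE16 with 0.83 and CYP8B1 with 0.79, which over all 16 libraries were 0.42, 0.74 and 0.11. A2ML1 was followed by HDAC3, a histone deacetylase, with 0.86, PTGS1, a prostaglandin synthase, with 0.84 and SIPA1L2 with 0.83, and over 16 libraries 0.58, 0.78 and 0.46. A rho over 0.8 was reached by 0.233% of genes with SERPINB1 and by 1.45% with A2M.

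The inhibitors did not follow each other detectably. Over the 11 libraries 10 pairs of the 5 places were compared. The largest correlation in size was between SERPINB2 beside SERPINB10 and A2M, with Pearson's r of -0.58 (permutation p = 0.0620, adjusted over 10 pairs 0.620) and Spearman's rho of -0.38 (permutation p = 0.248, adjusted 0.925). Without the 2 libraries farthest from the median r was -0.25. SERPINB1 and A2ML1 had r of -0.09 (permutation p = 0.810, adjusted 0.861) and rho of -0.15 (permutation p = 0.675, adjusted 0.925), and r was -0.25 without the 2 farthest libraries.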

How the data were processed

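Reads were single and 50 bases long, from polyadenylated RNA of 16 rumen papilla samples. TopHat2 2.08b and the genome build UMD3.1 are named in the submitters' processing notes. No aligner setting, gene annotation version or quantification tool is given in the sources used here. The authors deposited 1 table of 2351373 regions with signal values for each animal, which are mean read coverage per base times 1 factor per library, as read from the values: the sum of value by region length is 591.1 to 595.9 Mb per library. The ratio (fold), log2 and p-value columns deposited by the authors were not used.

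The file annotates 113576 regions with exons, and 519 holding exons of several genes were left out. A gene's level was its exon region with the highest mean over all libraries. Genes with at least 0.5 in at least 4 libraries were fitted as log2(value + 0.1) with limma 3.58.1 in R 4.3.3 (4 group means, trend and robust options, two-sided, Benjamini-Hochberg over all tested genes, threshold 0.05). The difference of a log2 value plus 0.1 understates the change of low genes. All contrasts put high gain or high intake on top. Group labels came from the sample labels. Nothing states separate litters or pens, and p-values measure only the spread between these animals. Estimated reads are coverage times length over the scaling factor and 50 bases, and no count test was used.

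Libraries with a first-exon index under -1.5 were called thin. The index used genes with at least 6 exons and regions averaging at least 2 units. The members, the lists and the index cut were chosen with earlier results of these data known. The genes named outside the 4 are, of each list, up to 4 with the smallest unadjusted p over gain and intake, plus kallikreins and surface genes described for intake, plus the 3 most alike by Spearman's rho. The markers of cell identity were added for reading beside the members, and some of them are not reported here. The fit was tested on simulated data. Alternatives changed the pseudocount, filter, scaling, region choice and library set, and the fit over all exon regions was chosen after seeing the data. The precision of a level is set by its coverage: in a 200-base exon a level under 1 unit rests on few reads.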

Additional observations from a re-analysis of the deposited data

Results flagged for a closer look

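In all, 20 sets of 4 libraries, the 4 groups at each of the 5 places, were checked for 1 library far from the other 3, and chance alone marks about 1 in 20 such sets. A2ML1 at exons 34 and 35 was marked in LGHI animals, where LGHI 4 had 537.65 units and the others 312 to 325. SERPINB2 beside SERPINB10 was marked in the same group, where LGHI 2 had 7.75 units and the others 9.04 to 9.14.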

How the results depend on the processing

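No paired analysis was possible because each animal gave 1 library and belongs to 1 group only. Over the alternatives the intake difference of SERPINB1 kept its sign and was 1.84 from the best region without a first exon. The gain difference of A2M was 1.10 with the first-exon index as covariate, and that of A2ML1 was -0.070 as a mean over all exon regions. The intake difference of A2M was -0.35 with the covariate and -0.67 without the 5 thin libraries, where that of A2ML1 was -0.10 and HGLI is 1 animal. The count of genes called for gain was 926 with the covariate (807 higher, 119 lower) and 64, all lower, without the thin libraries; for intake it was 2 as a mean over all exon regions. The cause was not tested. The 4 genes were not among the calls for gain or interaction in any of 26 alternatives. Leaving out 1 library at a time, calls numbered 0 to 71 for gain (71 without LGLI 3), 0 to 1 for intake (1 without HGHI 4) and 0 for the interaction. Gain differences then ran from -0.36 to -0.05 for SERPINB1, 0.48 to 0.69 for SERPINB2, 0.03 to 0.27 for A2ML1 and -1.67 to -0.47 for A2M. Intake differences ran from 1.04 to 1.35, -0.62 to -0.41, 0.07 to 0.30 and 0.17 to 1.30 for the same genes. Interactions ran from -0.061 to 0.56 for SERPINB1 (reversed without LGLI 2), 0.37 to 0.80 for SERPINB2, -0.41 to 0.061 for A2ML1 (0.045 without HGHI 3 and 0.061 without LGHI 4) and -2.03 to 0.37 for A2M (reversed without LGLI 3).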
